A study of Caenorhabditis elegans with 2 samples.

Results

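The genes nurf-1, zfp-1 and cbp-1 encode chromatin regulators of Caenorhabditis elegans, and their occupancy by AMA-1 (the largest RNA polymerase II subunit) is described here from chromatin immunoprecipitation followed by sequencing (ChIP-seq). They are 3 of 19973 protein-coding genes and hold 11 of the 476 peaks of the authors' joint list, which is named for a threshold on IDR, the irreproducible discovery rate between replicates. They were chosen by their peaks, because they had several or very high IDR peaks in these same data, so their IDR counts, ranks and signal values are a description and no test of them is given. The samples were whole late embryos of the wild-type strain N2, male and female pooled, of unknown age per the labels, in 1 group of 2 biological replicates. No genotype was altered and no treatment is given in the labels. The antibody is labelled ama-1, no other group or control file was analysed here, and whole embryos mix all tissues, so a summit cannot be assigned to a cell type, and fewer cells with AMA-1 at a site and less AMA-1 per cell cannot be told apart.

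NURF-1 is the worm counterpart of the largest subunit of the nucleosome remodelling factor NURF, which works with the ATPase ISW-1 to move nucleosomes, and its gene gives rise to many isoforms, some of which share no exon. ZFP-1 is the counterpart of human AF10, a PHD-finger protein that binds DOT-1.1, a histone H3 methyltransferase, and has a long and a short form. CBP-1 is the counterpart of the mammalian acetyltransferases CBP and p300, which acetylate histones at enhancers and promoters, and is needed for cell differentiation in worm embryos. RNA polymerase II ChIP-seq records polymerase at promoters, along gene bodies and beyond gene ends, whether it moves or has paused, and carries no strand.

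Each peak was taken as its summit, the position deposited by the authors, and a gene's window ran from 1500 bp upstream of its annotated start to 500 bp beyond its annotated end on build ce11. Rank 1 is the highest signal value of a list, and the signal value is the authors' peak score, with no stated scale, so its size cannot be set side by side between lists. The IDR list holds the 476 highest peaks of the pooled list, which was made from both replicates together. The pooled list and the list of each replicate hold 30000 relaxed peaks each, and its deposited name says that it holds background as well as peaks. Read depth is unknown for both libraries, and with 1 group there was no comparison between conditions.

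The members differed in how their IDR summits were laid out. zfp-1 had 5 IDR summits, nurf-1 had 4 and cbp-1 had 2. Among all protein-coding genes 2.79% had at least 1 IDR summit in such a window, 0.491% at least 2, 0.0551% at least 4 and 0.0100% at least 5, and since the genes were chosen for these summits nothing is read from their place in that distribution. The windows of the members were long, at 19199 bp for nurf-1, 16771 bp for zfp-1 and 10317 bp for cbp-1, against a median of 4027 bp over all protein-coding genes. Of the 1432 genes with windows at least as long as that of cbp-1, 5.94% had an IDR summit, 1.82% at least 2, 0.349% at least 4 and 0.0698% at least 5.

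nurf-1 (WBGene00009180) lies on chromosome II from 14390713 to 14407911 on the plus strand, with 23 annotated transcripts and 11 separate transcript starts once those within 50 bp are merged. Its 4 IDR summits all lay in the downstream part of the gene, between 13780 and 16786 bp from the start of a gene 17199 bp long. In the first and middle parts of the gene, each of the same length, the pooled list held 3 and 7 summits, of which the highest had rank 1415 and a signal value of 35.9. The downstream part of the same length held 9 pooled summits, including the 4 IDR summits.

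The highest IDR summit of nurf-1 (chromosome II, 14405666, peak 14405491 to 14405840) had a signal value of 149.7 and rank 23. It lay in the first exon of the short transcript F26H11.2f.1, 234 bp from that transcript's start and 121 bp inside its coding sequence, while for the full-length transcripts this position is in an intron. The overlapping peak had rank 19 and a signal value of 132.9 in replicate 1, and rank 179 and a signal value of 20.4 in replicate 2, the highest peak at nurf-1 in both replicates. The summits lay 1 bp apart in replicate 1 and 54 bp apart in replicate 2 from the IDR summit.

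The other IDR summits of nurf-1 differed in how near their ranks were in the replicates. The summit at 14404493 (rank 331, signal value 55.3) lay 161 bp upstream of the annotated start of F26H11.2e.1, with rank 418 in replicate 1 and rank 5451 in replicate 2. That start is the first coding base of a model without an annotated 5' UTR, so it need not be a site where transcription begins. The summit at 14405087 (rank 371, 53.5) lay 345 bp upstream of the start of F26H11.2f.1, with rank 1617 in replicate 1 and rank 561 in replicate 2. Both summits and the highest one lay within a single intron of the full-length transcript F26H11.2s.1, intron 20, which is 2676 bp long and held 3 of the 4 IDR summits. The fourth summit, at 14407499 (rank 340, 54.6), lay in a coding exon annotated in 13 transcripts, 412 bp before the gene's end, with rank 276 in replicate 1 and rank 275 in replicate 2, where the summit was 106 bp further downstream. It was also 223 bp inside the short model F26H11.2j.1, which has no annotated 5' UTR either. The gene F26H11.4, on the same strand, begins 1113 bp downstream of this summit, which also lies in that gene's window.

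**Figure D1:**
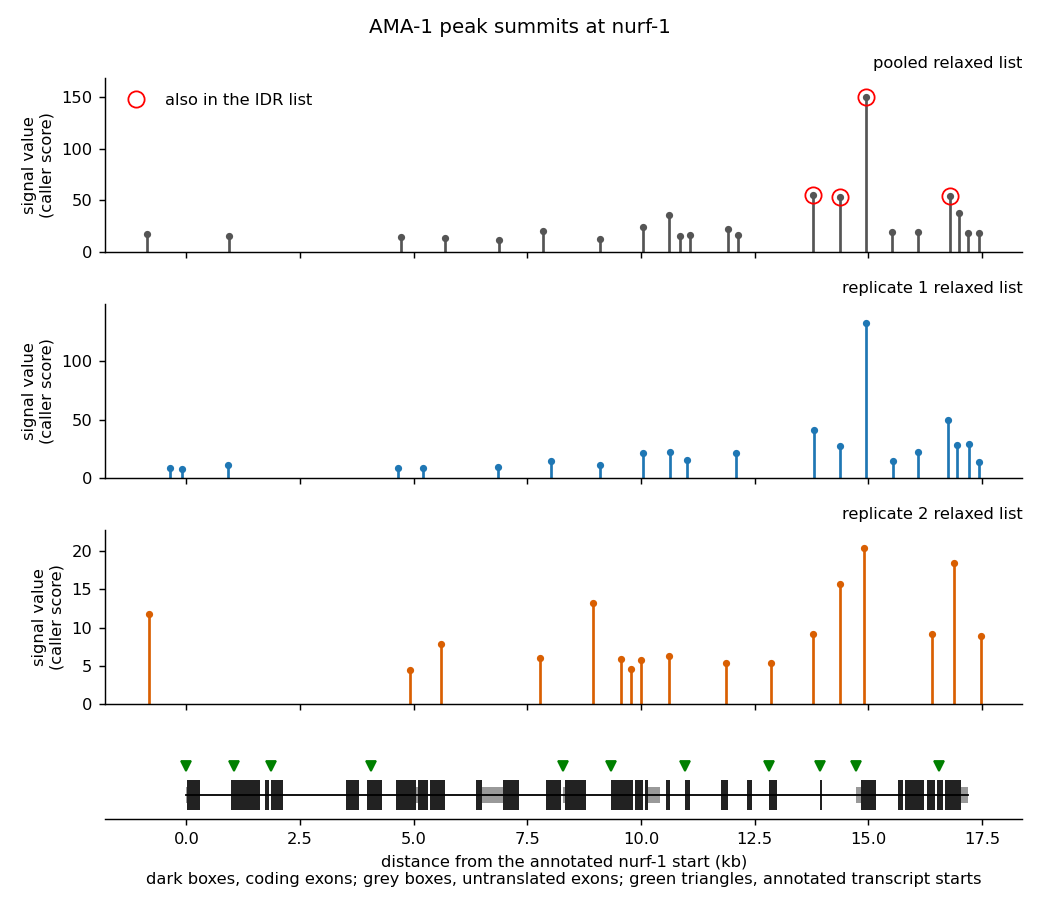
Signal value of each AMA-1 peak summit (caller score, on a separate axis for each list) by distance from the annotated nurf-1 start in kb, in the pooled list, replicate 1 and replicate 2, above the exons of all transcripts joined. The 4 IDR summits (red circles) sit between 13780 and 16786 bp, and the highest stem of each panel is the one in the first exon of F26H11.2f.1.

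The start shared by 10 nurf-1 transcripts, the start of the gene, had little signal. No pooled or replicate 2 summit lay within 250 bp of it, and the replicate 1 summit 104 bp upstream of it had rank 28904 and a signal value of 7.32. Of the 11 annotated starts of nurf-1, 6 had a pooled summit within 250 bp, 7 had one in replicate 1, 5 in replicate 2 and 4 in all 3 lists. Those of F26H11.2e.1, F26H11.2f.1 and F26H11.2j.1 were the starts with an IDR summit at that distance. In replicate 2 a peak at rank 2018 (signal value 11.8) lay 815 bp upstream of the gene and the pooled list had rank 11808 at 872 bp upstream, both over kbp-3, the neighbouring gene on the other strand. The longest stretch without a pooled summit ran from 928 to 4726 bp, and in replicate 1 from 921 to 4662 bp.

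zfp-1 (WBGene00006975) lies on chromosome III from 8791535 to 8806305 on the plus strand, with 11 annotated transcripts and 9 separate starts. Of its 5 IDR summits, 3 lay in introns, 1 in coding sequence and 1 beyond the gene's end. The highest (chromosome III, 8802049, peak 8801874 to 8802223) had a signal value of 113.2 and rank 44. It lay in intron 11 of the full-length transcript F54F2.2a.3, 770 bp upstream of the start of F54F2.2c.2, a transcript of the short form. The overlapping peak had rank 130 and a signal value of 65.1 in replicate 1 and rank 24 and a signal value of 35.2 in replicate 2, again the highest peak of the gene in both.

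The same intron, 3179 bp long, held a further zfp-1 summit at 8800014 (rank 171, signal value 69.5), 481 bp downstream of the start of the other short transcript, F54F2.2c.1. This summit had rank 134 in replicate 1, close to the first in signal value (64.3), but in replicate 2 the overlapping peak had rank 19093 and shared 46 bp with it, its own summit being 299 bp away. The coding summit at 8803149 (rank 280, 58.5) lay in an exon annotated in 10 transcripts, which is the first coding exon of the short form. It was 195 bp inside the coding sequence of F54F2.2c.2 and 330 bp from that transcript's start, with rank 243 in replicate 1 and rank 5768 in replicate 2. The 3 summits from 8800014 to 8803149 were spaced by 2035 bp and 1100 bp. The protein-coding gene F54F2.6, on the other strand, lies between the summits at 8800014 and 8802049, at 472 bp and 1348 bp from them. The window of F54F2.6 held these 2 IDR summits as well, and without strand they cannot be assigned to one of these genes.

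The outermost summits of zfp-1 were its lowest in the IDR list. The summit at 8795016 (rank 452, signal value 50.55) lay in intron 6 of F54F2.2a.3, 607 bp downstream of the nearest annotated start, that of F54F2.2a.7, with rank 482 in replicate 1 and rank 3297 in replicate 2. The summit at 8806424 (rank 449, 50.64) lay 119 bp beyond the end of zfp-1 and inside a coding exon of F54F2.7 (WBGene00018835), a gene on the other strand from 8806231 to 8807346 whose 3' end overlaps that of zfp-1. It had rank 221 in replicate 1 and rank 4071 in replicate 2, and without strand it cannot be assigned to one of these genes.

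**Figure D2:**
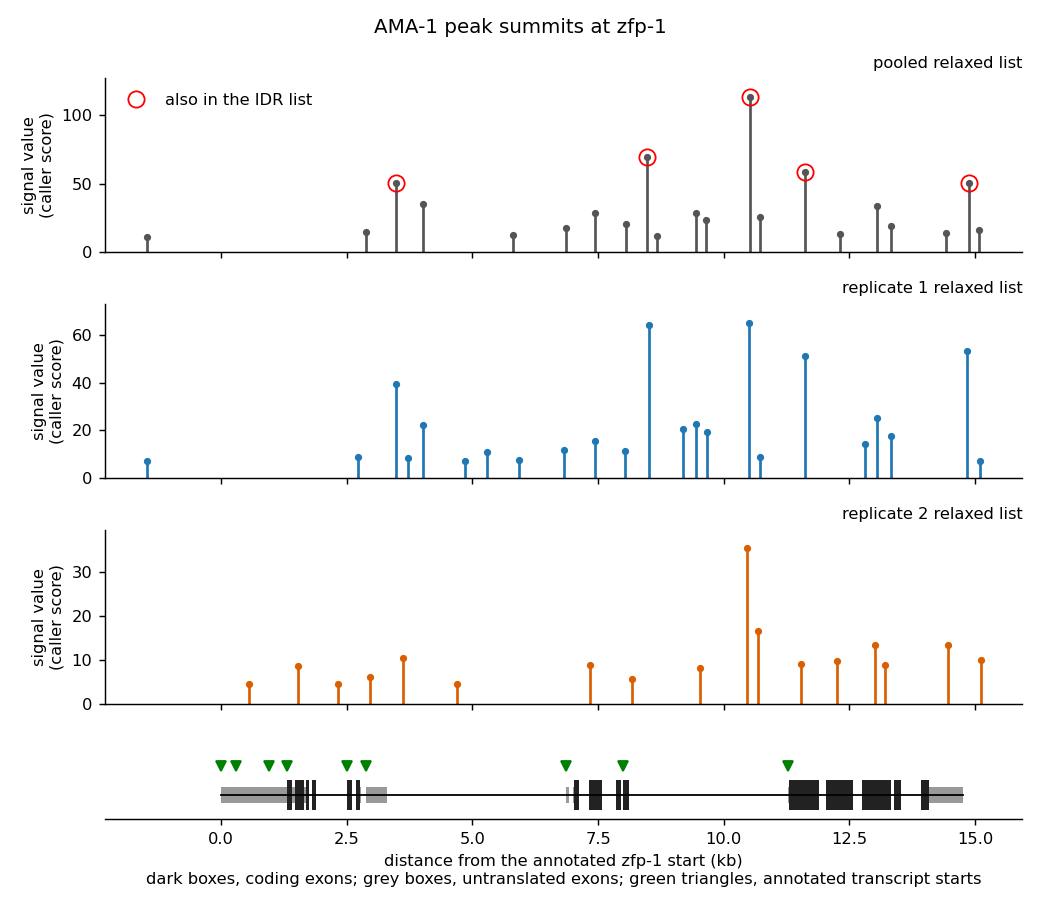
Signal value of each AMA-1 peak summit (caller score, on a separate axis for each list) by distance from the annotated zfp-1 start in kb, in the pooled list, replicate 1 and replicate 2, above the exons of all transcripts joined. The pooled and replicate 1 panels are empty over the first annotated starts, and the summit near 10.5 kb is the highest of each panel, in replicate 1 just above its neighbour in the same intron.

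Around the upstream starts of zfp-1 the lists held few peaks. Between 1484 bp upstream of the gene and 2884 bp inside it, a stretch of 4368 bp, the pooled list had no summit. It takes in 6 of the 9 annotated starts, the last of them 10 bp before the summit that ends it. In replicate 1 this stretch was 4200 bp long, from 1484 bp upstream to 2716 bp inside, whereas replicate 2 had peaks in it at ranks 29132, 6699 and 28972. The nearest replicate 2 summit to the gene's start was 550 bp inside the gene, with a signal value of 4.485, near the lowest value of that list (4.394). None of the 9 zfp-1 starts had an IDR summit within 250 bp, 3 had a pooled summit and 2 had a summit in all 3 lists. The genes ztf-1, on the other strand, and F54F2.14, on the same strand, overlap the upstream part of zfp-1, and that stretch held no IDR summit.

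cbp-1 (WBGene00000366) lies on chromosome III from 9766509 to 9774825 on the plus strand, with 4 transcripts that share 1 start. Its highest IDR peak (chromosome III, 9765519 to 9765639, summit 9765608) lay 901 bp upstream of that start, outside any annotated gene, with a signal value of 171.6 and rank 18. The overlapping peak had rank 17 and a signal value of 142.0 in replicate 1 and rank 16 and a signal value of 39.7 in replicate 2, so the ranks were within 2 of each other in all 3 lists. The IDR summit lay 21 bp from that of replicate 1 and 4 bp from that of replicate 2. This peak was 121 bp wide in place of the usual 350 bp of the list, and 155 bp wide in replicate 1, where most peaks were 360 bp. The replicate 1 peak at the highest nurf-1 summit was narrow too, at 104 bp, though its IDR peak had the usual 350 bp. The nearest annotated genes were non-coding, R10E11.12 on the plus strand, which ends 460 bp before the summit, and R10E11.10 (WBGene00196856) on the minus strand, whose body lies 499 bp away with its start facing the summit.

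At the start of cbp-1 itself the replicates differed. A summit lay 34 bp inside the gene at rank 480 in replicate 1 (signal value 39.6), and the pooled list had one 38 bp inside at rank 1120 (38.4), outside the IDR list. Replicate 2 had no summit within 250 bp of the start, its nearest being 684 bp upstream at rank 1569. The other IDR summit of cbp-1 (9769929, rank 338, signal value 54.8) lay 3420 bp from the start in exon 8, a coding exon of 3213 bp shared by all 4 transcripts. It had rank 353 in replicate 1 and no overlapping peak in replicate 2, where the nearest summit was 3818 bp from the start at rank 6716.

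Further cbp-1 peaks stood high in a single replicate. In replicate 1 a summit in the 3' UTR, 247 bp before the gene's end, had rank 705, and an intronic one 6812 bp from the start had rank 792. In replicate 2 a summit 413 bp beyond the gene's end had rank 369, where replicate 1 had none in the window beyond the end. These peaks were outside the IDR list, the nearest pooled peaks having ranks 1015, 990 and 2523.

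**Figure D3:**
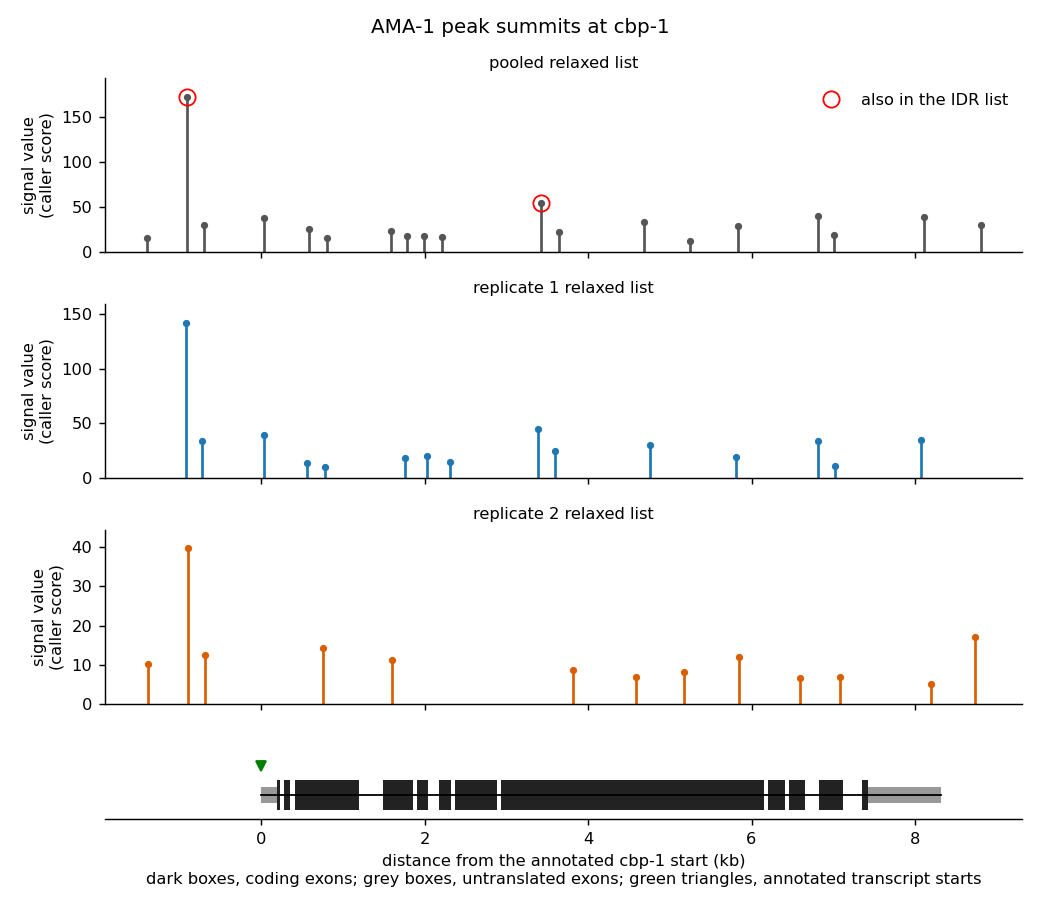
Signal value of each AMA-1 peak summit (caller score, on a separate axis for each list) by distance from the annotated cbp-1 start in kb, in the pooled list, replicate 1 and replicate 2, above the exons of all transcripts joined. The highest stem of every panel is upstream of the gene, at 901 bp in the pooled list, and the IDR summit in the long exon 8 has no overlapping peak in replicate 2.

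The genome sequence at the highest IDR summit of each gene, and at the other summit in intron 11 of zfp-1, is shown because these sites carry the layout described above. Each line gives 201 bases centred on the summit, on the plus strand of ce11, which is also the genes' strand. Capitals mark, on either strand, matches to the GA repeat GAGAG, to the motif TATAA of the TATA box, to TTNCAG (N is any base), which resembles a splice acceptor, or to the GC-rich motif GCGC. The nurf-1 window is chrII:14405566-14405766, and the others are chrIII:8801949-8802149, chrIII:8799914-8800114 and chrIII:9765508-9765708, in the order of the lines.

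nurf-1 rank 23: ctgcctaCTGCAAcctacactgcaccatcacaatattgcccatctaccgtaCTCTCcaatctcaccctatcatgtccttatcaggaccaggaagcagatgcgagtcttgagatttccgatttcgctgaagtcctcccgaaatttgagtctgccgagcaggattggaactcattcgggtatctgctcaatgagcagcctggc
zfp-1 rank 44: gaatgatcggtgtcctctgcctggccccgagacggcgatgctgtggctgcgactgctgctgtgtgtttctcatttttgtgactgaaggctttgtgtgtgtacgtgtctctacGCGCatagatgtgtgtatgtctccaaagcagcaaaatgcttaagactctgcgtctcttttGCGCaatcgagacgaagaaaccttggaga
zfp-1 rank 171: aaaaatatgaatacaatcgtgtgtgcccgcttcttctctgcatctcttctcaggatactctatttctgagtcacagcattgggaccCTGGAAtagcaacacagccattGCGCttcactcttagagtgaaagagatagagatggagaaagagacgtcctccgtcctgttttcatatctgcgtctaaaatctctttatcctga
cbp-1 rank 18: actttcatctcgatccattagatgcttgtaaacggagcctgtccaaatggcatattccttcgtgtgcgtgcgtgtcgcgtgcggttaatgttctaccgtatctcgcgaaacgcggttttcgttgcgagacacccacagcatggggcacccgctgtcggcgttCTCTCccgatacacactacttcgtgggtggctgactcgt

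The nurf-1 window lay in the coding sequence of the first exon of F26H11.2f.1 and held a TTNCAG and a GAGAG match, both on the minus strand. The zfp-1 windows held 2 GCGC matches at rank 44, and a TTNCAG match on the minus strand and 1 GCGC match at rank 171. The cbp-1 window held a single GAGAG match, on the minus strand. None of these 4 windows held TATAA. Over the 11 member windows GAGAG was found in 5, GCGC in 4, TTNCAG in 3 and TATAA in 2, beside 42.4%, 29.2%, 46.6% and 21.8% of the windows of all 476 IDR summits. The motifs did not overlap one another in the printed windows. A match is a description of the letters and not a binding site.

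Base composition differed among the members' summits. The highest summit of each gene was richer in G and C than the gene's other IDR summits, with a GC content of 50.2% at nurf-1 rank 23, 50.7% at zfp-1 rank 44 and 54.2% at cbp-1 rank 18. The other 8 summits ranged from 35.8% beyond the end of zfp-1 to 49.3% in its coding summit. The median of the 11 was 43.8%, beside 42.3% over all IDR summits and 35.4% of the bases of chromosomes I to V and X. Of the 31-base words in each of the 11 peaks, 100% occurred once in the genome, so at that word length no member peak shared sequence with another locus.

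Across the 11 IDR summits, 4 lay in coding sequence, 5 in introns, 1 upstream and 1 beyond an end. No summit lay within 250 bp of its gene's own annotated start, where 23.9% of all 476 IDR summits lay within 250 bp of the start of some protein-coding gene. A count of 0 in 11 allows a share of up to 27.3%, so a lower share at these genes was not detectable with 11 summits. Counting every annotated transcript start, 3 of the 11 lay within 250 bp (27.3%, exact Clopper-Pearson 95% interval 6.02 to 61.0%, counting error only), all at nurf-1, beside 29.2% of all IDR summits. Near an annotated transcript end, within 250 bp, lay 1 of the 11, the zfp-1 summit beyond the gene, beside 36.8% of all IDR summits near an end of some protein-coding gene. The summits of a gene share its annotation and are not independent. nurf-1 has so many annotated starts that 28.7% of its window lay within 250 bp of one, against 24.1% for zfp-1 and 4.86% for cbp-1. Within 500 bp of an annotated start lay 6 of the 11, with 55.3%, 39.9% and 9.70% of the windows of nurf-1, zfp-1 and cbp-1 that near to one.

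More of the 11 IDR peaks had an overlapping peak among the highest of replicate 1 than of replicate 2, as was so over all IDR peaks. Of the 11, 10 had an overlapping peak among the 1000 highest of replicate 1, beside 95.6% of all IDR peaks, and 5 among the 1000 highest of replicate 2, beside 50%. A peak of any rank in replicate 2 overlapped 10 of the 11, beside 93.5% of all IDR peaks. An overlapping peak within the top 1000 ranks of each replicate was found for 4 of the 11, beside 45.6% of all IDR peaks. These 4 were nurf-1 at ranks 23 and 340, zfp-1 at rank 44 and cbp-1 at rank 18, which takes in the highest summit of each gene. The median rank was 243 in replicate 1, and 1929 over the 10 with a peak in replicate 2, beside 233.5 and 716 for all IDR peaks with a peak there.

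**Figure D4:**
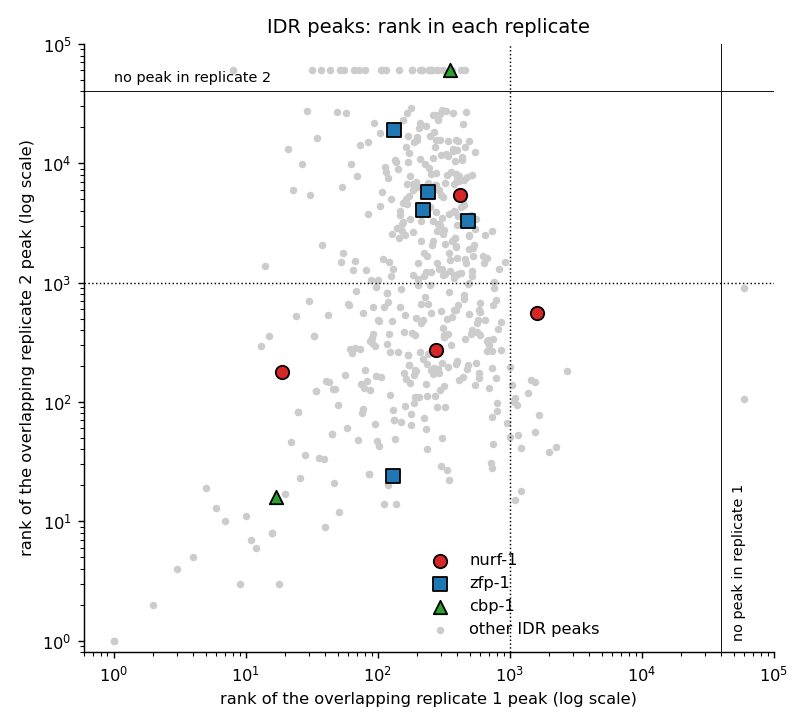
Rank of the overlapping peak in replicate 1 (x axis, log scale) and in replicate 2 (y axis, log scale) for each IDR peak, with the members coloured and all others in grey. Dotted lines mark rank 1000, and peaks beyond a solid line have no overlapping peak in that replicate; 4 member peaks lie in the lower left box and 1, at cbp-1, has no peak in replicate 2.

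Members just inside the IDR list and just outside it were well apart. The lowest member peaks inside were zfp-1 at ranks 452 and 449 (signal values 50.55 and 50.64), and the lowest value of the list itself was 49.8. The first member peaks outside were those of cbp-1 at pooled ranks 990 and 1015 (39.7 and 39.4), then cbp-1 at 1120 and nurf-1 at 1185 (37.7), in its last coding exon. The first zfp-1 peak outside had rank 1499 (35.3), in an intron 4022 bp from the start.

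Relaxed summits were dense over all 3 genes. The pooled list held 22 at nurf-1, 21 at zfp-1 and 19 at cbp-1, or 1.15, 1.25 and 1.84 summits per kb of window, where the median over the 19973 protein-coding genes was 0.170 and that over the 1432 genes of similar or greater length was 0.367. In replicate 1 the density was 1.09, 1.37 and 1.45 per kb, with 21, 23 and 15 summits. In replicate 2 it was 0.885, 1.01 and 1.26 per kb, with 17, 17 and 13 summits. cbp-1 thus had the highest density of the 3 genes in each of these relaxed lists, and nurf-1 the lowest. In the pooled list 94.2% of protein-coding genes had a lower density than nurf-1, 95.9% a lower one than zfp-1 and 99.7% a lower one than cbp-1. These densities come from the reads that gave the IDR summits, so they are not separate support for them.

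**Figure D5:**
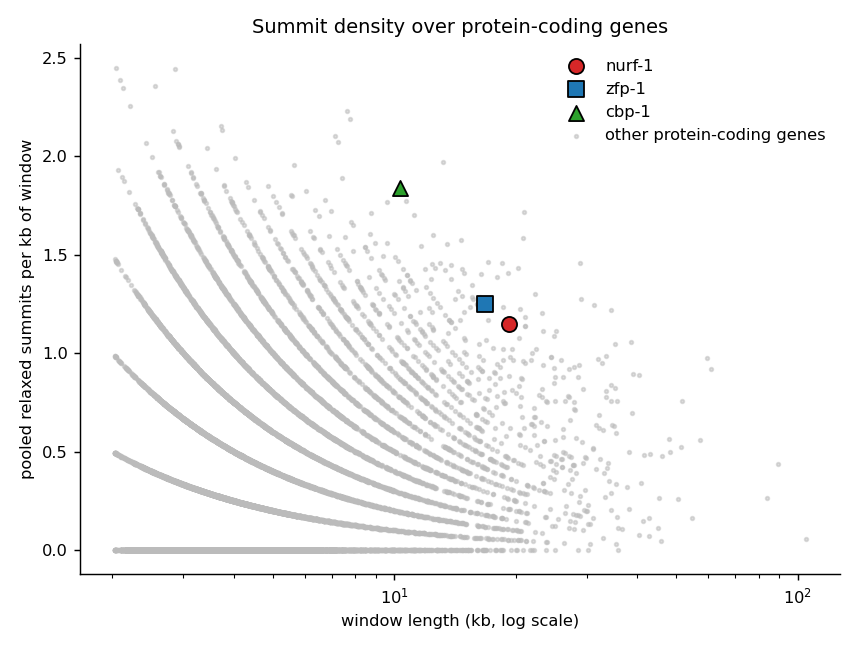
Pooled relaxed summits per kb of window (y axis) against window length in kb (x axis, log scale) for each protein-coding gene, with the members as large symbols and other genes in grey. cbp-1 stands at 1.84 summits per kb, zfp-1 at 1.25 and nurf-1 at 1.15, and the curved rows of grey points are genes with the same whole number of summits.

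The relaxed peaks of the members recurred between replicates. Of the replicate 1 peaks, 15 of 21 at nurf-1, 19 of 23 at zfp-1 and 11 of 15 at cbp-1 overlapped a replicate 2 peak by at least 1 bp, beside 46.4% of all 30000. Of the replicate 2 peaks, 13 of 17, 12 of 17 and 12 of 13 overlapped a replicate 1 peak, beside 43.0% of all 30000. The dense peaks of these genes overlap more easily than peaks elsewhere, and the part of this in the shares was not tested. The peaks at cbp-1 lay mostly in coding sequence (12 of 19 pooled, against 1 in an intron), where coding exons made up 58.7% of its window and introns 11.5%. At zfp-1 10 of 21 pooled summits were intronic, where introns made up 53.2% of the window, and at nurf-1 11 of 22, where they made up 47.0%.

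Other chromatin regulators were looked at with a list of 128 further names, of which 119 matched an annotated protein-coding gene. The list was written with earlier results of these data known, and its spp-1 is known as a caenopore gene and not as a chromatin regulator; it had no IDR summit. Of the 119 genes, 11 had an IDR summit (9.24%), beside 2.79% of all protein-coding genes, with a median window of 6321 bp in the list. The list was not tested, and its longer windows cover more sequence. By group, 3 of 7 genes of the NuRD and MEC list had one (let-418, a CHD-type remodeller, mep-1, a zinc-finger partner of LET-418, and egl-27, an MTA-related gene). Their overlapping peaks had ranks 188, 205 and 85 in replicate 1, but 15157, 19643 and 3749 in replicate 2. chd-1 and chd-7, also remodellers, were the genes with a summit besides nurf-1 among 10 in the NURF and ISWI list, and isw-1, which encodes the ATPase partner of NURF-1, had none. epc-1, the enhancer of Polycomb counterpart, had one besides cbp-1 among 16 in the acetyltransferase list. ash-2 and dpy-30, of the H3 methyltransferase complex COMPASS, were 2 of 12, lin-59 and mig-32 were 2 of 30 in the histone methylation and Polycomb list, and let-526, of the SWI/SNF complex, was 1 of 12. In the list of zfp-1 and the DOT1 family, zfp-1 was 1 of 6. The deacetylase-related list gave 0 of 19 (a share of up to 15.8% is allowed by that count), and the demethylase list gave 0 of 10 (up to 30%). The demethylase list left out spr-5, lsd-1 and amx-1, placed in the deacetylase-related list, and utx-1, placed in the COMPASS list.

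The summits of these other regulators lay mostly outside the gene, beyond its end or upstream. Of the 11 member summits, 4 lay in coding sequence and 5 in introns. At 5 of the 11 genes (dpy-30, egl-27, let-418, mep-1 and mig-32) the summit lay 101 to 209 bp beyond the gene's end, and at 3 (ash-2, chd-1 and chd-7) it lay 110 to 1019 bp upstream. At 8 of the 11 genes a summit had another annotated gene within 250 bp and cannot be assigned to one of them: rnp-1 at dpy-30, tbc-6 at egl-27, M04B2.2 at mep-1, F11A10.6 at mig-32, Y17G7B.20 at ash-2, pdi-3 at chd-1, linc-91 at chd-7, and gldi-8 and Y111B2A.34 at epc-1. At epc-1, let-526 and lin-59 a summit lay inside the gene. The highest was that of epc-1 (chromosome III, 12599161, rank 38, signal value 118.8), 469 bp beyond its end and within 250 bp of gldi-8. It was followed by chd-1 (rank 62, 97.6), 661 bp upstream and within 250 bp of pdi-3, and by egl-27 (rank 106, 81.4), 167 bp beyond its end. Of the 11 genes 2 had more than 1 IDR summit, epc-1 with 4 and let-526 with 2. The epc-1 summits at 12599161 and 12599362 overlapped the same replicate peaks, at ranks 33 and 354, so they may not be separate sites. These summits lay 469 and 268 bp beyond the end of epc-1. In replicate 2 the overlapping peaks of lin-59 and dpy-30 had ranks 8196 and 4315. Those of epc-1, let-526, chd-1, chd-7, ash-2 and mig-32 had ranks from 112 to 1915 there.

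By the best rank in each replicate and the number of IDR summits, the genes most like nurf-1 among 549 protein-coding genes with an IDR summit and a peak in both replicates were epc-1, W06H8.6 and gldi-8, each with 4 IDR summits, at distances of 0.315, 0.498 and 0.580. The distance is Euclidean over the log10 best ranks and the number of summits, over 2 samples. The genes epc-1 and gldi-8 overlap and share summits, so they are not separate examples. Those most like zfp-1 were T26A8.4 with 5 IDR summits, gei-4 and again gldi-8, at 0.666, 1.04 and 1.21. For cbp-1, with best ranks of 17 and 16, the nearest was F09A5.3 with best ranks of 20 in replicate 1 and 17 in replicate 2 and 2 IDR summits, at 0.0753, followed by Y67D8A.2 at 0.282 and eif-2Bgamma at 0.302. The IDR peaks at ranks 13 and 304 overlapped the same replicate peaks, at ranks 16 and 8, the best ranks of eif-2Bgamma. The number of summits counts such a pair as 2, so those of eif-2Bgamma may not be separate sites.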

How the data were processed

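AMA-1 ChIP-seq peak lists of 2 biological replicates of N2 late embryos were used on build ce11. Per the notes deposited beside them, the authors made each replicate's relaxed list from its alignments and 1 further file, the pooled list from both alignments and the IDR list from these 3. The sources used here do not give caller, IDR threshold, filters or depth, nor whether cultures were separate. Peak height is a score deposited by the authors, with no stated scale. The 4 ce10 lists were not used.

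Genes came from Ensembl release 115 (WBcel235, the ce11 assembly) and bases from RefSeq's copy of it. Positions are 1-based. With Python 3.11.15, numpy 2.4.6, pandas 2.3.3 and scipy 1.17.1, summits were placed in windows, exons and transcript starts (merged within 50 bp), and each IDR peak was paired with the highest-ranked replicate peak sharing at least 1 bp. The counting was tested on simulated data. Named genes are the members, genes with a member's IDR summit in their body, 500 bp upstream or within 250 bp, list genes with an IDR summit, and the 3 genes most like each member. kbp-3, ztf-1, F54F2.6, F54F2.14, F26H11.4, R10E11.12, isw-1, spp-1 and the genes beside other regulators' summits were added after their values were seen. Also added then were R10E11.13, spr-5, lsd-1, amx-1 and utx-1. Members and lists were chosen with earlier results of these data known, so no test was run. Intervals and limits from a count of 0 (3 counts) cover counting error only. Alternatives were other peak lists, windows, distances and overlap rules.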

Additional observations from a re-analysis of the deposited data

How the results depend on the processing

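Counts of IDR summits depended most on the peak list. With the 476 highest peaks of replicate 1 or of replicate 2 alone, summits numbered 2 to 3 at nurf-1, 2 to 4 at zfp-1 and 2 at cbp-1, the lowest values being those of replicate 2. In replicate 2 the 2 zfp-1 summits (ranks 24 and 437) both overlapped the IDR peak with its summit at 8802049. Of the 2 at cbp-1 in replicate 2, that at rank 369, 413 bp beyond the gene's end, overlapped no IDR peak. With the upper 238 IDR peaks the summits numbered 1 at nurf-1, 2 at zfp-1 and 1 at cbp-1, and with the 952 highest pooled peaks 4, 5 and 2. With the gene body alone, or 500 bp upstream to the end, cbp-1 kept 1 summit, since its highest lies further upstream. Of 27 recounts 20 were within 1.5 times the reported count. With the 5000 highest peaks of a list, relaxed peaks numbered 6 (pooled), 10 (replicate 1) and 5 (replicate 2) at nurf-1, 10, 10 and 7 at zfp-1, and 10, 10 and 7 at cbp-1. The share near an annotated start was 0% within 100 bp and 0% against the gene's own start, 54.5% within 500 bp, and 33.3% of 9 and 16.7% of 6 summits with replicate 1 and replicate 2 alone. The number of member peaks among the 1000 highest of both replicates was 4, or 3 with summits within 100 bp. Of the other chromatin regulators, 14 had a summit with replicate 1 alone (2.94% of all protein-coding genes did), 12 with replicate 2 alone (2.79%), 6 with the upper 238 IDR peaks (1.47%), 19 with the 952 highest pooled peaks (5.38%), 3 with gene bodies alone (1.13%) and 4 with 500 bp upstream to the end (1.52%). No paired analysis was possible because the samples form 1 group. Unknown read depth limits what peaks absent from a list can show.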
